A study of Mus musculus with 2 samples.

Results

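Imprinted genes are transcribed mainly or only from the chromosome copy inherited from a given parent. They lie in clusters, and DNA methylation set down in egg or sperm on a control region of the cluster decides which copy is read. Several clusters hold a growth regulator beside a long non-coding RNA read from the opposite parental copy, and many imprinted genes are active in the embryo and in developing brain.

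The 43 genes described here were chosen by name as known imprinted genes or close neighbours in imprinted clusters, and all 43 were found among the 43346 Ensembl genes of the tables. They fall into 17 loci on 8 chromosomes, with 20 of them on chromosome 7. Total RNA came from hindbrains of healthy B6NCrl mouse embryos on embryonic day 11.5, with both sexes combined and no treatment. The series has 1 group of 2 biological replicates, pool 1 from 109 embryos and pool 2 from 88, each sequenced from 10 ng of RNA above 200 nt in length, to which spike-in RNAs were added. Each library is thus an average over many embryos, and the spread between the libraries is a spread between pools, not between embryos. With 1 group there is no test between conditions and no p-value. B6NCrl is an inbred strain and the tables hold no reads by parental allele, so the expressed allele named for each gene is background knowledge and was not measured.

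Levels are given as TPM, a transcript's share of the library after correction for its length, and a value for pool 1 is followed by that for pool 2. Where an error is printed it is the SD over the 2 pools (n = 2). Reads are expected counts, the estimated number of reads assigned to a gene.

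Depth was 45340440 expected counts in pool 1 and 41261544 in pool 2. The imprinted genes took 334968 and 314990 of these, which was 0.798% and 0.855% of the counts on Ensembl genes. Spike-ins held 16.2% of TPM in pool 1 and 22.2% in pool 2, which lowers the TPM of every gene in pool 2 in proportion. The tissue label was checked on markers: 7 of 8 hindbrain genes were detected, among them Hoxa2 at 49.3 and 48.1 TPM. The dissection also held other cells, since 9 of 9 mesenchyme and meninges markers were detected (summed TPM 616 and 580) and 7 of 7 erythroid markers (11967 and 11210). None of 5 placental markers was detected, and Prl3d1 and Tpbpa were listed at 0 in both pools. In bulk RNA, fewer cells of a type and less RNA per cell cannot be told apart.

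Most imprinted genes were expressed in the embryonic hindbrain, and a few of them carried most of the signal. Detection, set at 1 TPM or more in each of the pools, was met by 37 of 43 genes, against 33.0% of all Ensembl genes and 59.4% of protein-coding genes. The mean TPM was at least 10 for 31 genes and at least 100 for 12, and 28 stood above 14.15 TPM, the median of all expressed genes, meaning those whose mean TPM reached 1. Nnat, Mest and Gnas together made up 48.1% of the summed imprinted TPM in pool 1 and 47.8% in pool 2. Summed over all 43 genes the level was 6078 and 5922 TPM. Of the 42 neighbouring pairs in the order of mean levels, 23 had overlapping ranges over the pools, so much of the fine order is not resolved by 2 libraries. More than 1000 reads were assigned in both pools to 30 of the genes, and fewer than 100 in both to 4.

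**Figure D1:**
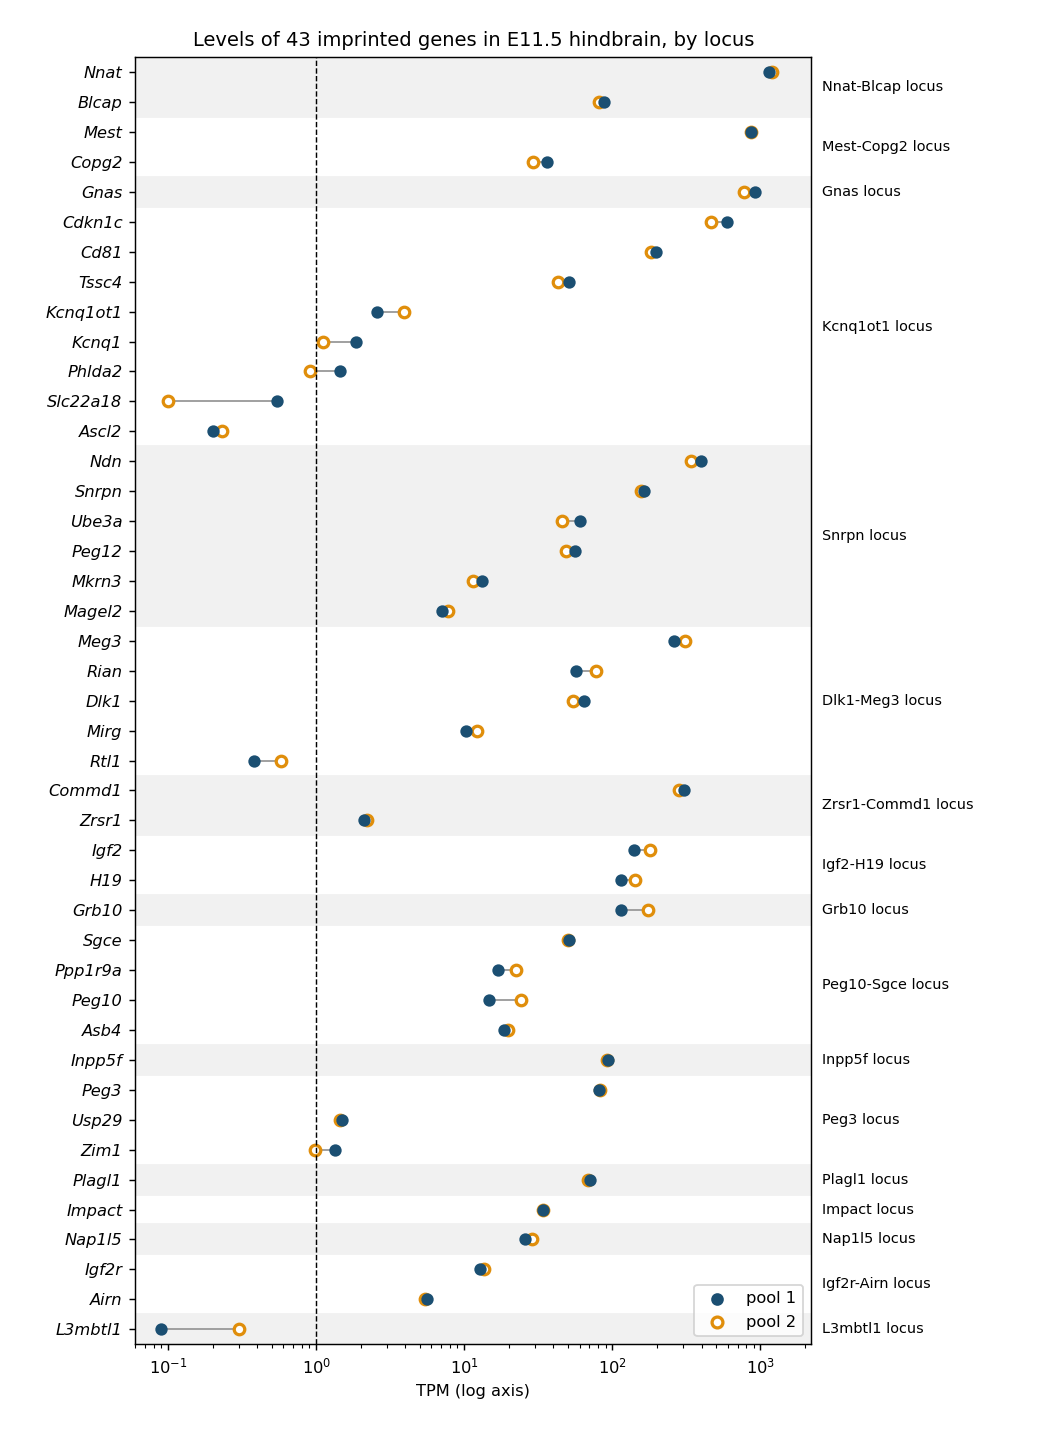
TPM of each imprinted gene on a log axis, with filled points for pool 1 and open points for pool 2, grouped by locus in order of summed level. The dashed line marks 1 TPM, the detection limit; Nnat lies furthest right at 1141 and 1201 TPM and L3mbtl1, with 0.09 and 0.30 TPM, has the lowest mean.

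The Nnat-Blcap locus had the highest summed level, 1229 and 1282 TPM. Nnat (chr2:157560078-157562522) encodes neuronatin, a small membrane proteolipid of neural and endocrine cells, and is read from the paternal copy. It had 1141 and 1201 TPM from 36827 and 37171 reads and ranked above 99.6% of expressed genes. Nnat sits within Blcap, a gene whose imprinting is limited to brain transcripts, and Blcap had 87.9 and 81.5 TPM, so that Nnat was 12.98 and 14.74 times as abundant as its host.

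Mest and Copg2 overlap at their ends on opposite strands of chromosome 6. Mest (chr6:30723547-30748465), a paternally expressed gene for a hydrolase-like protein of mesodermal and neural tissue, had 868 and 860 TPM. Copg2, a subunit of the vesicle coat COPI, had 36.0 and 29.2 TPM. The ratio of Mest to Copg2 was 24.1 and 29.5. The genes share 912 exonic bases in the reference annotation, and the labels and files used here do not give the strand setting of the counting, so reads there may not be separable.

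Gnas (chr2:174284320-174346744) encodes the stimulatory G protein alpha subunit and several other products whose imprinting depends on the promoter. Its TPM was 912 and 772, the third highest mean of the 43 genes. Pool 2 was lower, and the ranges of Gnas and Mest overlapped.

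**Figure D2:**
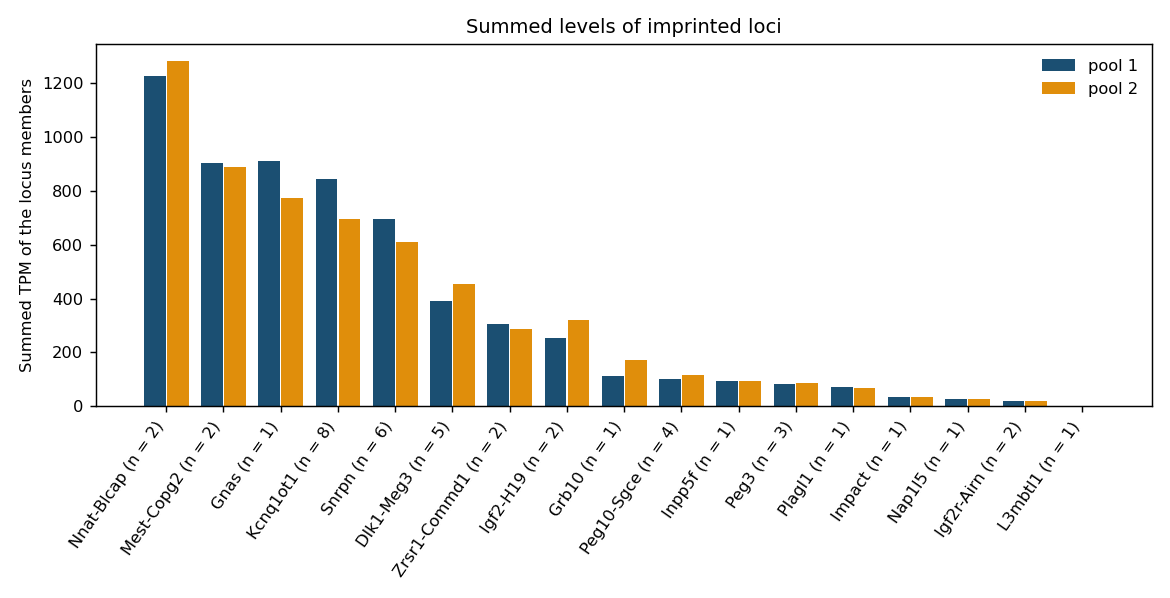
Summed TPM of the members of each imprinted locus on a linear axis from 0, with pool 1 and pool 2 side by side and the number of member genes in brackets. The Nnat-Blcap, Mest-Copg2 and Gnas loci lead, and the sums of the Grb10 and Igf2-H19 loci were lower in pool 1 (114 and 253 TPM) than in pool 2 (173 and 321 TPM).

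The Kcnq1ot1 locus on chromosome 7 was dominated by a single gene. Cdkn1c (chr7:143458339-143461050), a maternally expressed inhibitor of cyclin-dependent kinases that promotes cell cycle exit, had 590 and 464 TPM of the locus sums of 845 and 694 TPM. Of the Cdkn1c exonic bases 30.7% are also covered by a gene annotated on the opposite strand, so reads there may not be separable. Cd81, a tetraspanin of the cell surface, had 198 and 181 TPM, and its neighbour Tssc4 had 50.7 and 42.8 TPM. Imprinting of Cd81 and Tssc4 is known mainly from placenta. The remaining protein-coding genes were low. Kcnq1, a voltage-gated potassium channel subunit, had 1.86 and 1.12 TPM. Phlda2, a pleckstrin homology domain protein known to restrain placental growth, had 1.45 and 0.91 TPM from 28 and 17 reads. Slc22a18, a membrane transporter gene, had 0.54 and 0.10 TPM, and Ascl2, a bHLH factor of trophoblast, had 0.20 and 0.23 TPM.

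Kcnq1ot1, the paternal antisense RNA that silences this cluster in cis, shows how length weighs on such values. The gene received 6335 and 9319 reads, more than Cd81 in pool 2 (7293 reads), yet its TPM was 2.56 and 3.91, since the RNA was quantified with a length of 84395 nt. Cdkn1c exceeded Kcnq1ot1 by 231 times in pool 1 and 119 times in pool 2 on the TPM scale.

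All 6 genes of the Snrpn locus on chromosome 7 were detected, summing to 698 and 609 TPM. Ndn (chr7:62346569-62350262), a paternally expressed MAGE family protein of postmitotic neurons, led with 399 and 340 TPM. Snrpn, which encodes the splicing protein SmN of neural tissue, had 162 and 156 TPM. Of the Snrpn exonic bases 34.1% are shared with other annotated genes, with the largest overlaps on the same strand. Reads there may not be separable. Peg12, a relative of the Frat regulators of Wnt signalling, had 56.0 and 48.3 TPM. Mkrn3, a RING finger protein, had 13.2 and 11.5 TPM, and Magel2, a further MAGE family gene, had 7.10 and 7.76 TPM. Ube3a, a ubiquitin ligase whose paternal copy is silenced in mature neurons, had 60.3 and 45.8 TPM. All 8 neuronal markers were detected in both pools, with Tubb3 at 762 and 654 TPM, and which of these cells held the Ube3a RNA was not measured. In the reference annotation 27.3% of Ube3a exonic bases are also covered by other genes, chiefly on the opposite strand, the long antisense host Snhg14 among them. Snhg14 itself had 41.1 and 51.5 TPM and is named after its values were seen.

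In the Dlk1-Meg3 locus on chromosome 12 the non-coding genes read from the maternal copy outweighed the coding genes read from the paternal copy. Meg3 (chr12:109541001-109571726), a nuclear long non-coding RNA, had 259 and 308 TPM. Dlk1 (chr12:109452823-109463336), a transmembrane relative of the Notch ligands, had 64.4 and 53.8 TPM, so that Meg3 was 4.02 and 5.73 times as abundant. Rian, a host of small nucleolar RNAs, had 56.7 and 78.0 TPM, and Mirg, a host of microRNAs, had 10.3 and 12.2 TPM. The 3 non-coding genes had more TPM in pool 2, and Dlk1 had more in pool 1. Relative to the median gene, as defined with the pool ratios, Dlk1 was at 0.15 on the log2 scale in TPM and at -0.03 in expected counts scaled with TMM, so its direction depended on the scaling.

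Rtl1, a retrotransposon-derived gene needed in placental vessels, was below detection at 0.38 and 0.58 TPM from 70 and 103 reads. The opposite strand of Rtl1 carries 6 of the microRNA hairpins of the locus. Their 11 mature sequences in the RefSeq table (GRCm38.p6) are fully complementary to the Rtl1 transcript of 6358 nt, which makes Rtl1 RNA a perfect-match target of these maternally expressed microRNAs in background knowledge. The 11 seeds, bases 2 to 8, are all different, and the following are shown because they face Rtl1 (plus strand of chromosome 12, seed in capitals).
mmu-miR-431-5p: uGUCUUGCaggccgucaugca
mmu-miR-433-3p: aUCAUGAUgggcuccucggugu
mmu-miR-127-3p: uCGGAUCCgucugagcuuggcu
mmu-miR-434-3p: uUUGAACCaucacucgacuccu
mmu-miR-432: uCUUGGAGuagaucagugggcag
mmu-miR-136-5p: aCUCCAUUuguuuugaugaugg

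These run from miR-431-5p at chr12:109590459-109590479 to miR-136-5p at chr12:109595331-109595352. The microRNAs themselves were not measured. The tables hold 26 hairpin entries within the imprinted hosts, 68 to 124 nt long, and every entry had 0 reads in both pools, where a count of 0 allows up to 3 reads for counting error alone and RNA shorter than 200 nt was not in the libraries. The RefSeq table, which is not limited to these entries, places 14 hairpins within Mirg, 3 within Rian and 1 each within H19 and Igf2. Because the strand setting is unknown, reads of an antisense precursor could be counted to Rtl1.

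Igf2 and H19 share enhancers on chromosome 7 and are read from opposite parental copies. Igf2 (chr7:142650766-142666816), a fetal growth factor expressed from the paternal copy, had 140 and 179 TPM. H19 (chr7:142575529-142578143), a maternal non-coding RNA, had 113 and 142 TPM. Both were higher in pool 2, and their ratio was nearly the same in the pools, with Igf2 at 1.23 and 1.26 times H19. Both genes are textbook products of mesenchyme and endothelium. The mesenchyme marker sum was 616 and 580 TPM and that of 7 endothelial markers was 118 and 104 TPM. Relative to the median gene, the median log2 ratio was 0.00 for the mesenchyme list and -0.05 for the endothelial list, and their part in the Igf2 and H19 levels was not tested. In the reference annotation 64.5% of Igf2 exonic bases are shared with other genes, the only gene of the 43 above 50%. Reads there may not be separable, and how far this affects its level was not measured.

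The receptor side of the axis was lower. Igf2r (chr17:12682406-12769664), the clearance receptor for Igf2, had 12.7 and 13.7 TPM. The antisense RNA Airn, which silences Igf2r on the paternal copy outside neurons, had 5.57 and 5.44 TPM from 135 and 147 reads. Airn spans chr17:12741311-12860136 but was quantified on annotated exons, with effective lengths of 823 and 957 nt. RNA outside those exons is not covered, and its TPM is not comparable with that of Kcnq1ot1, quantified at 84296 nt. Of 15 further genes of the insulin-like growth factor axis 13 were detected. Igfbp2, a binding protein, led with 393 and 386 TPM, followed by Igfbp4 with 214 and 199 TPM and the RNA-binding protein gene Igf2bp2 with 92.6 and 91.0 TPM, and Igfbp6 was lowest at 0.03 and 0.21 TPM. Igf1r, the signalling receptor, had 15.2 and 23.1 TPM.

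Grb10 (chr11:11930508-12038683) encodes an adaptor that binds insulin and IGF1 receptors and dampens their signal. It is read from the maternal copy in most tissues and from the paternal copy, at other promoters, in neurons. It had 114 and 173 TPM, with the higher level in pool 2.

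In the Peg10-Sgce locus on chromosome 6, 4 of 4 genes were detected. Sgce, a sarcoglycan, had 51.3 and 50.1 TPM. Peg10, a retrotransposon-derived gene whose annotated start lies 99 nt from that of Sgce in the opposite direction, had 14.6 and 24.2 TPM. The ratio of Sgce to Peg10 was 3.52 in pool 1 and 2.07 in pool 2. Ppp1r9a, the actin-binding protein neurabin, had 16.8 and 22.3 TPM, and Asb4, a SOCS box protein, had 18.4 and 19.7 TPM.

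In the Peg3 locus Peg3 had far more RNA than its neighbours. Peg3 (chr7:6703892-6730431), a zinc finger protein, had 81.5 and 82.2 TPM. Usp29, a ubiquitin protease gene on the opposite strand, had 1.5 and 1.45 TPM, so that Peg3 was 54.3 and 56.7 times as abundant. The Usp29 value is that of a single transcript with its start at 6961160, and RNA from the Usp29 gene start annotated 147 nt from Peg3 is not measured by it. Zim1, a maternally expressed zinc finger gene nearby, had 1.34 and 0.98 TPM.

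Commd1, a regulator of copper transport and NF-kappaB, had 302 and 283 TPM, and Zrsr1, a paternally expressed splicing factor retrogene within its intron, had 2.11 and 2.21 TPM. Inpp5f, an inositol phosphatase, had 93.0 and 92.7 TPM. Plagl1, a zinc finger protein that regulates other imprinted genes, had 71.0 and 67.9 TPM. Impact, a regulator of translation under stress, had 33.9 and 33.9 TPM. Nap1l5, a nucleosome assembly protein relative, had 25.8 and 28.6 TPM. L3mbtl1, a reader of histone methylation, was below detection at 0.09 and 0.30 TPM.

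By the allele that background knowledge assigns, 19 of 20 paternally expressed genes and 6 of 9 maternally expressed genes were detected. The paternal genes had a median of 41.8 ± 1.07 TPM and the maternal genes 19.1 ± 0.912 TPM. Summed TPM was 3141 and 3157 for the paternal genes, against 1052 and 1026 for the maternal genes. The low maternal genes were Phlda2, Slc22a18 and Zim1, while Cdkn1c and Meg3 held most of the maternal sum. Of 10 genes whose imprinting is limited to some tissues, mostly placenta or mature neurons, 9 were detected with a median of 39.7 ± 5.21 TPM. Where such a gene is not imprinted its RNA comes from both copies, and the share of each copy was not measured.

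The start sites in use could be read from the transcript tables for genes with several promoters. Transcripts were grouped where their annotated starts lay within 500 nt of each other, and 25 of 43 genes had more than 1 such group. In 11 genes at least 2 groups each held 10% or more of the gene's TPM in both pools, while in 10 genes a leading group held more than 90%. By expected counts in place of TPM, 8 genes had at least 2 groups of 10% or more. Annotated starts include models of transcript fragments, so a group is not evidence of a promoter by itself.

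Gnas, Mest, Plagl1, Snrpn and Inpp5f were each read mainly from a single group. For Gnas the group of the G protein alpha subunit, led by the start at 174330089, held 96.0% of TPM in pool 1 and 95.9% in pool 2, which was 876 and 740 TPM. The start of the maternal neuroendocrine product Nesp, at 174284320, had 4.61 and 4.51 TPM, the paternal XL-type start at 174297859 had 0.77 and 0.77 TPM, and the exon 1A start at 174327570 had 20.7 and 16.8 TPM. The Mest group at 30738050 held 98.9% and 98.0% of TPM, and the group upstream at 30733506 had 0.30 and 0.30 TPM. Snrpn was read mainly from the group at 60005111, with 92.6% and 93.8%, and 7.36% and 6.23% came from the start far upstream at 60140219. Inpp5f drew 89.4% and 89.7% from the downstream start at 128687546, the start of its paternally expressed variant, and 6.84% and 7.13% from the upstream group.

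For Grb10 reads and TPM gave different shares. The upstream start at 12037401 (the major promoter) held 94.8% and 92.9% of the gene's reads and 75.1 and 90.7 TPM. A short transcript of 430 nt with its start at 12026732 was assigned 343 and 731 reads, which its length turned into 35.3 and 78.1 TPM. The deposited interval for this short transcript ran from 27.0 to 41.3 TPM in pool 1 and from 67.0 to 85.1 TPM in pool 2, at a level that the files do not state. The transcript that starts at 12027971, in the region of the neuronal promoters, had 1.13 and 0.54 TPM. That value covers this start alone. The group led by the start at 12026732, next downstream, had 36.55 and 79.82 TPM, and which promoter its RNA came from was not measured.

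Igf2 was spread over several groups. By reads, the start at 142659489 held 31.2% and 30.0%, the group at 142657466 held 29.0% and 30.3%, a 3-prime fragment model that starts at 142653030 held 29.8% and 27.3%, and the most upstream start, at 142666816, held 8.49% and 10.6%. By TPM, which favours short models, the same starts held 9.51% and 8.92%, 16.5% and 16.9%, 48.9% and 43.6%, and 21.7% and 26.4%, in that order.

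**Figure D3:**
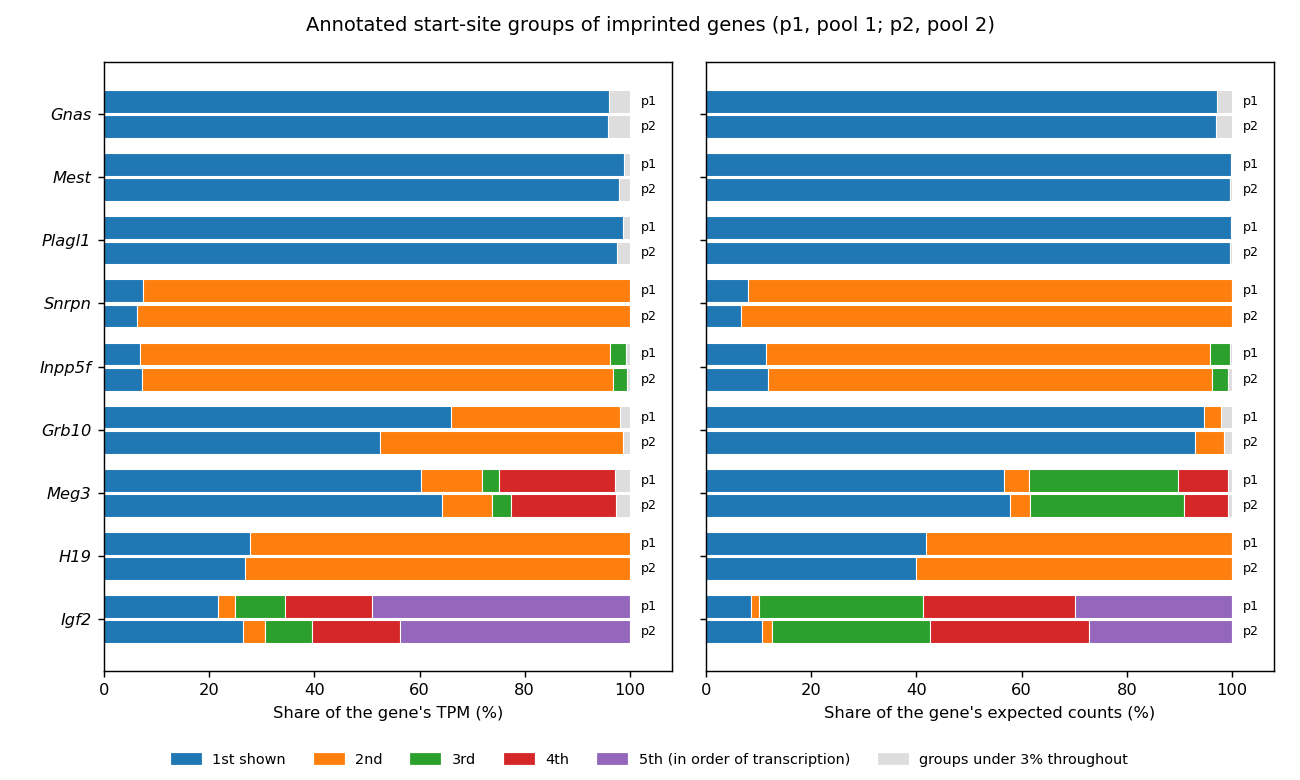
Share of each gene's TPM (left) and expected counts (right) per group of annotated starts, with pool 1 above pool 2 for each gene and colours in order of transcription. Groups under 3% in every share are grey. Grb10 shows a downstream group, led by the start at 12026732, with 32.1% and 46.2% of TPM but 3.24% and 5.64% of counts.

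Promoter sequences of the starts just described are printed from the RefSeq table (GRCm38.p6), each 300 bases from 250 before to 50 after a RefSeq start, with CG dinucleotides in capitals because these are the sites of DNA methylation. Each was the window nearest to the group named. The first of each pair is the start with more reads and the second the start with fewer. The second Grb10 window, labelled downstream, is that of the start at 12027971, with 155 and 70.9 reads. No window is printed for the group led by the start at 12026732. Their coordinates are chr11:12037371-12037670 (minus strand) and chr11:12027922-12028221 (minus strand) for Grb10, chr6:30737800-30738099 (plus) and chr6:30733256-30733555 (plus) for Mest, and chr2:174329756-174330055 (plus) and chr2:174284070-174284369 (plus) for Gnas.
Grb10 major start: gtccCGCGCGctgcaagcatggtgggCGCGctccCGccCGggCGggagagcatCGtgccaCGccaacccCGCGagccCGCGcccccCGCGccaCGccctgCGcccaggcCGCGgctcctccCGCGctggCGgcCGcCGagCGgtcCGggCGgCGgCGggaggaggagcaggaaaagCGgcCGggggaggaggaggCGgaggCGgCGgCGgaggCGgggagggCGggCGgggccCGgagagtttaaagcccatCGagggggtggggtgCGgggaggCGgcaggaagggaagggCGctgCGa
Grb10 downstream start: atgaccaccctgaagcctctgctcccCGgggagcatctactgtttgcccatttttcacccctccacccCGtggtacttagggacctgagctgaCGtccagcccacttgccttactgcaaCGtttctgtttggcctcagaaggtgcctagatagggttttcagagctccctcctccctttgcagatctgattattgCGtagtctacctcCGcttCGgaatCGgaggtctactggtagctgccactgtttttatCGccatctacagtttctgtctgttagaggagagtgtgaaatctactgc
Mest major start: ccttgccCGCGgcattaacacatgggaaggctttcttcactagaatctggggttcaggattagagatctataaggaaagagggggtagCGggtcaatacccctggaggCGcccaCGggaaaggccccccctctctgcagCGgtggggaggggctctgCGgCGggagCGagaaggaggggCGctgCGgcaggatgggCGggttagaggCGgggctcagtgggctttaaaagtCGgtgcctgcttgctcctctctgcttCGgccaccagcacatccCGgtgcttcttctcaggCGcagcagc
Mest upstream start: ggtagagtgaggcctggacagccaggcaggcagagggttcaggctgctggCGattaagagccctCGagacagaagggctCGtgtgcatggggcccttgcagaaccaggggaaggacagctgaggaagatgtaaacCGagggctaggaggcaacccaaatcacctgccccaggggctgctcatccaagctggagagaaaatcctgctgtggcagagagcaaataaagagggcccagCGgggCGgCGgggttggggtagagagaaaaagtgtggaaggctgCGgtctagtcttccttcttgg
Gnas alpha subunit start: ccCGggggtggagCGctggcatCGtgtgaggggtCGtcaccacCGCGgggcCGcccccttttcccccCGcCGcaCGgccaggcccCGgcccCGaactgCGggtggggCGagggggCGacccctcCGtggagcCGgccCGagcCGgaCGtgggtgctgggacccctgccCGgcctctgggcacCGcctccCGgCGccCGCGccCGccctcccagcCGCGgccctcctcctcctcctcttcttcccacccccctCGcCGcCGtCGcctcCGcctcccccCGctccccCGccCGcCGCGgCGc
Gnas Nesp start: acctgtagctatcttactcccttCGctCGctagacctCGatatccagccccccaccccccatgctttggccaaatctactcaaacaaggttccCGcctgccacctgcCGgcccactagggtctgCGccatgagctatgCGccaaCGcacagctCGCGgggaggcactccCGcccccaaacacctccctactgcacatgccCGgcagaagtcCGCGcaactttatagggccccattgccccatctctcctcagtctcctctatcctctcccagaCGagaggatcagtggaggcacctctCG

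These pairs were chosen by hand. In each, the more used window held more CG: 45 and 9 for Grb10, 17 and 8 for Mest, and 40 and 16 for Gnas. Asb4 went the other way, with 6 CG at the start that held 96.1% and 95.6% of reads and 8 at its other start. The order of CG was not compared over all genes. For Peg3, read in full from its start group at 6730421, the window at chr7:6730370-6730669 (minus strand) held 13 CG. It also spans the annotated start of the Usp29 gene.
Peg3 start: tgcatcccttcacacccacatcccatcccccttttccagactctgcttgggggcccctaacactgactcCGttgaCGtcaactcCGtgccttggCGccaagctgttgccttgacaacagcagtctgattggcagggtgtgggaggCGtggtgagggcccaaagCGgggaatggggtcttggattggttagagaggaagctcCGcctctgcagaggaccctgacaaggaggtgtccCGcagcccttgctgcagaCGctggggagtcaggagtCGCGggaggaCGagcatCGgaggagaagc

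RefSeq windows were at hand for 36 of 43 genes, 52 windows in all. Their median was 15 CG, against 7 over all 32851 windows of the table. The motif TGCCGC, known to be bound by the imprint-protecting zinc finger protein ZFP57 when methylated, was searched on both strands. It was present in 12 windows, or 23.1%, against 11.6% of all windows. The motif itself holds a CG, and the shares were not matched for the CG content of the windows. The overlapping Mest windows with starts at 30738050 and 30738053 both count among the 12. The motif TGCCGC occurred 2 times in the Mest major window and 1 time in the Grb10 major window. The motif GCCATNTT, bound by YY1, was in 2 windows, or 3.85%, against 6.05% of all windows. A match describes letters in a window and is no measure of binding. The windows lie at starts, and control regions elsewhere in a cluster were not searched.

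Factors that keep imprints were themselves expressed. Of 19 listed genes 16 were detected. Trim28, the corepressor recruited by ZFP57, had 327 and 314 TPM, Mbd3, a subunit of the NuRD complex, had 172 and 166 TPM, and the chromatin remodeler gene Atrx had 157 and 168 TPM. Zfp57, named after its values were seen, had 104 and 106 TPM. Dnmt3l, the cofactor that sets imprints in germ cells, was listed at 0 in both pools.

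The pools were compared as log2 of (TPM + 1) in pool 1 over pool 2, less the median of all 14942 expressed genes, which was 0.11. On this scale 2 of 39 imprinted genes lay more than 1.5-fold apart, against 5.98% of all genes, so the count is near that background. Both, Grb10 and Peg10, were higher in pool 2, a direction that held for 4.35% of all genes, and none was higher in pool 1, against 1.63%. Grb10 was 1.63-fold and Peg10 1.74-fold higher in pool 2 relative to the median gene. Among all genes with a mean TPM of 100 or more, where Grb10 lay, 0.898% were more than 1.5-fold apart. Among those from 5 to 20 TPM, where Peg10 lay, it was 4.36%. Shares at 1.63-fold or 1.74-fold were not computed. With 1 library per pool, no error can be given for either ratio.

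Both calls rested in part on short transcripts. Without the 430-nt transcript, an alternative chosen after seeing the data, Grb10 had 78.6 and 94.7 TPM and was 1.30-fold higher in pool 2. Without a Peg10 transcript of 1477 nt that is not in the reference annotation and had 1.83 and 7.36 TPM, Peg10 had 12.7 and 16.8 TPM and was 1.40-fold higher in pool 2. Neither was then past 1.5-fold. In expected counts scaled to the library total the relative log2 ratio was -0.43 for Grb10 and -0.62 for Peg10, against -0.71 and -0.80 in TPM.

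**Figure D4:**
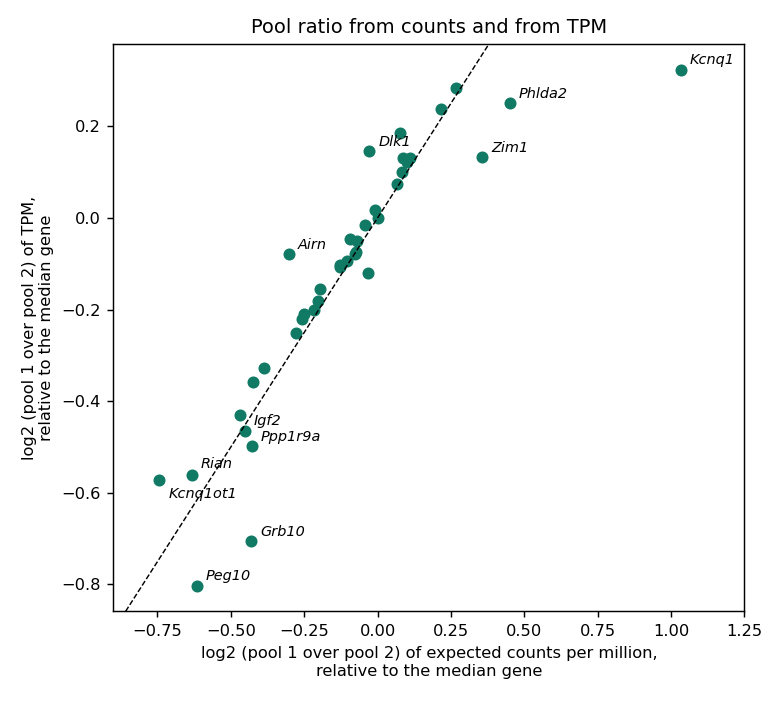
Log2 ratio of pool 1 over pool 2 relative to the median gene, from expected counts scaled to the library total (x axis, pseudocount 0.1) and from TPM (y axis, pseudocount 1), for the 39 expressed imprinted genes. Grb10 and Peg10 lie below the dashed line of equal values, and Kcnq1, with 115 and 47.6 reads, lies far to the right at 1.03 in counts and 0.32 in TPM.

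All 6 non-coding imprinted genes had a relative ratio below 0, that is, lay on the pool 2 side of the median gene. Rian was at -0.56, Kcnq1ot1 at -0.57, H19 at -0.43, Meg3 at -0.36, Mirg at -0.33 and Airn at -0.08. Their median was -0.39, against -0.05 for 33 protein-coding imprinted genes. Among all expressed long non-coding genes the median was -0.15 and 527 of 784 lay below 0, while the median of expressed protein-coding genes was 0.01. None of the 6 passed 1.5-fold in TPM as deposited with a pseudocount of 1. Kcnq1ot1 did with a pseudocount of 0.1 (-0.71) and with TPM rescaled over protein-coding genes (-0.59), and Rian and Kcnq1ot1 did in expected counts scaled with TMM or DESeq2 size factors. Igf2, the coding partner of H19, had -0.46. Skeletal muscle markers differed between the pools in the other direction, with a summed TPM of 59.0 and 26.8. The choroid plexus marker sum was 254 and 184 TPM, most of it from a single gene. Of 4 expressed choroid plexus genes 3 lay above 0 and 1 below. The part of either list in these ratios was not tested.

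Of the factors that keep imprints, 0 of 16 expressed genes were past 1.5-fold, with a median ratio of -0.06. Of the growth factor axis 1 of 13 was, Igf1r, 1.60-fold higher in pool 2, and the median was 0.00. With 5.98% of all expressed genes past the limit, both counts are near the background.

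On the pool 1 side were Kcnq1 at 0.32, Ube3a at 0.28, Phlda2 at 0.25 and Cdkn1c at 0.24, none past 1.5-fold in TPM. Kcnq1, with few reads, was past it in expected counts, at 0.71 with TMM and 1.07 with DESeq2 size factors. The paternal genes had a median ratio of -0.09 and the maternal genes -0.26, and the maternal list holds 4 of the non-coding genes, H19, Meg3, Rian and Mirg.

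**Figure D5:**
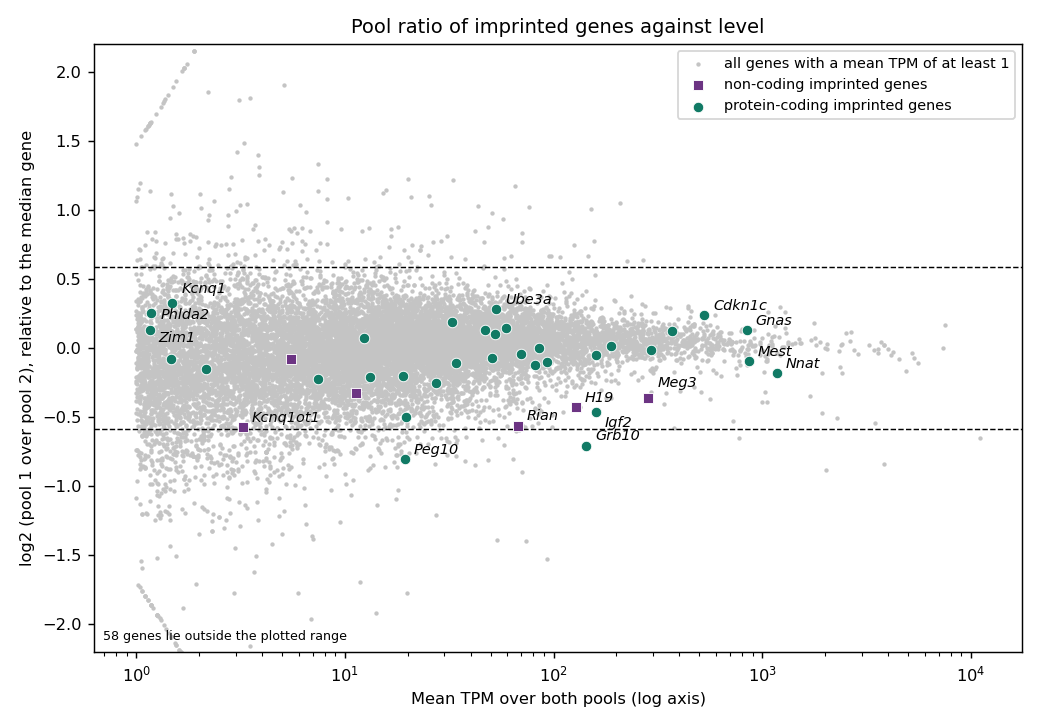
Log2 ratio of pool 1 over pool 2 relative to the median gene against mean TPM (log axis), with imprinted genes as large symbols (squares non-coding, circles protein-coding) over all expressed genes in grey. Dashed lines mark 1.5-fold; Grb10 and Peg10 lie below the lower line, and the 6 squares all lie below 0.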

How the data were processed

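Per the labels, the mirVana kit was used for extraction, a Smart-Seq document describes the library protocol, ERCC spike-ins were used and reads were placed on mm10. Aligner, quantifier and strand setting: not given in the sources used here. The authors deposited, per library, a gene and a transcript table with an expected count (an estimate that can be fractional), TPM, FPKM and bounds of an interval around TPM. TPM in the deposited tables sums over every entry, spike-ins included.

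Symbols and coordinates (GRCm38, 1-based) came from GENCODE vM21, matched on Ensembl identifiers without version (42462 of 43346); of 268 transcripts of the 43 genes 263 matched. The members and lists were chosen with earlier results of these data known, and the expressed allele of each gene is a hand-written label from background knowledge. Both libraries formed 1 group, so levels, shares and ratios are described with no test. A gene was called apart beyond 1.5-fold from the median gene. The naming rule for other lists took the 3 highest and the 1 lowest gene by mean TPM and genes called apart whose mean TPM was 5 or more; the text gives marker lists mostly as counts and sums and leaves out most marker genes the rule selects, Hes5, Actc1, Myog, Acta1 and Kcne2 among those called apart. Zfp57, Snhg14, Prl3d1 and Dlx5 were named after their values were seen. Of 41 other imprinted genes listed 36 matched. The ratio and start-site steps were tested on simulated data. Alternatives were FPKM, TPM rescaled over protein-coding or Ensembl genes, and other pseudocounts, filters, thresholds and start-site distances. Expected counts were also scaled with factors from edgeR 4.0.16 (TMM) or DESeq2 1.42.0 in R 4.3.3. The factors were estimated on counts rounded to whole numbers and applied to the unrounded counts. Each replicate was also left out in turn. Python 3.11.15 with pandas 2.3.3, NumPy 2.4.6 and Matplotlib 3.10.9 did the rest. A marker gene of the lists is not reported here.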

Additional observations from a re-analysis of the deposited data

How the results depend on the processing

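The number of detected imprinted genes ranged from 33 to 39 over all alternatives and from 37 to 39 with a replicate left out. The median over all 43 genes was 46.8 TPM, ranging from 42.8 to 50.7 with a replicate left out, and 66.6 when TPM was rescaled over nuclear protein-coding genes, which removes the spike-ins. The paternal median of 41.8 TPM became 27.9 in FPKM and 157 as a mean, and the maternal median of 19.1 TPM became 12.7 and 115; with a replicate left out they ranged from 41.1 to 42.6 and from 18.4 to 19.7. The paternal value was the higher in each of these.

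The 2 genes past 1.5-fold between the pools became 4 with TMM and 4 with DESeq2 scaling of expected counts (Kcnq1, Kcnq1ot1, Peg10 and Rian, without Grb10), beside 4.04% and 9.34% of all genes, and 0 at 2-fold, beside 1.70%. Counts take no account of the lengths of the transcripts assigned. These lengths moved by more than 0.2 on the log2 scale for 5 of the 43 genes, against 6.80% of all expressed genes. The 5 include L3mbtl1, which had 4 and 8 reads and is not among the expressed genes. The cause was not tested further. Kcnq1ot1 was added with a pseudocount of 0.1 and with protein-coding rescaling. Of 273 single ratios under these alternatives 252 moved by less than their counting error and 21 by more, and no called gene changed sign. The number of genes with at least 2 start-site groups of 10% or more was 11. It was 8 when expected counts replaced TPM, 12 when only starts within 100 nt were joined, and 7 within 2000 nt. With a replicate left out it ranged from 12 to 13. No paired analysis was possible because there is 1 group. Depth limits the genes with under 100 reads, Phlda2, Slc22a18, Ascl2 and L3mbtl1.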

Other observations

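Of 36 further imprinted genes from the list that were found in the tables, 23 were detected. Nap1l4, a histone chaperone gene, had 128 and 107 TPM, Bcl2l1, a regulator of apoptosis, 101 and 88.4 TPM, and H13, a signal peptide peptidase gene, 92.9 and 94.2 TPM, while Dio3, which inactivates thyroid hormone and lies in the Dlk1-Meg3 region, was listed at 0 in both pools. In this list 4 of 23 expressed genes were over 1.5-fold apart, against 5.98% of all expressed genes. Dcn, the proteoglycan decorin of connective tissue, had 12.0 and 23.7 TPM, Ddc, the aromatic amino acid decarboxylase, 6.28 and 9.90 TPM, and Nespas, the antisense RNA of the Gnas locus, 4.48 and 7.15 TPM. Those 3 were higher in pool 2. Dlx5, a homeobox factor of branchial arch mesenchyme and forebrain named after its values were seen, had 4.70 and 1.58 TPM and was higher in pool 1.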
